A study of Mus musculus with 13 samples.

Results

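The genes described here encode proteins of the spliceosome and of the hnRNP family, and were taken by symbol: 68 of the 23235 symbols in the table begin with Srsf, Sf3a, Sf3b, Prpf, Snrp, U2af, Luc7l or Hnrnp and do not carry the pseudogene ending -ps. They comprise 11 SR protein genes, 12 genes of Sm and other snRNP proteins named Snrp, 3 SF3A genes, 5 SF3B genes, 3 U2AF genes, 3 LUC7-like genes, 13 PRPF genes and 18 hnRNP genes. The rule itself uses no measured value, though the group was proposed with earlier results of these data known. A gene was kept when its value reached 1 in at least 2 of the 4 columns, which left 67 of the 68 and 14240 genes in all. The exception was Srsf12, an SR protein gene listed at 0 in null nuclei, 0.258 in WT nuclei, 1.24 in null cytoplasms and 0 in WT cytoplasms. Each of the 67 reached 1 in every column, the lowest value being 1.04 for Prpf4 in WT nuclei.

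The spliceosome removes introns from nuclear transcripts and is built from small nuclear ribonucleoproteins (snRNPs) together with many further proteins. Each snRNP holds a small RNA, in most of them wrapped in a ring of Sm proteins. The U1 snRNP finds the 5′ splice site, U2AF the 3′ splice site and the U2 snRNP, with its SF3A and SF3B parts, the branch point, after which the PRPF proteins of the U4/U6.U5 particle and the catalytic core complete the reaction. SR proteins and hnRNPs bind the transcript itself and favour or disfavour nearby splice sites, and several of both families keep their own level in check through a spliced form that is degraded. A growing oocyte stores large amounts of messenger RNA in its cytoplasm for use after transcription stops.

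Polyadenylated RNA was measured in MTR4-null and wild-type (WT) mouse oocytes, with nuclei and cytoplasms parted by micromanipulation and 10 of either per library. MTR4, encoded by Skiv2l2, is the helicase that hands nuclear RNA to the exosome for degradation. The labels list 2 libraries of MTR4-null nuclei and 2 of MTR4-null cytoplasms, all from day 21, and 5 libraries of WT nuclei and 4 of WT cytoplasms, from days 14 and 21. The labels give neither the allele nor any driver line behind the null genotype, nor whether libraries of 1 group came from separate animals. The table has 1 column for each genotype and compartment and none for a single library, which leaves no spread between libraries to judge a difference by and made any test impossible. The WT columns name no day, so genotype and age cannot be told apart.

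The values are FPKM (fragments counted per length of transcript and per read total) by the name of the table, but the columns are not on 1 scale. Their totals were 1396105 in null nuclei, 594034 in WT nuclei, 3007242.2 in null cytoplasms and 6637345.5 in WT cytoplasms, and read depth is unknown. To bring them together, a divisor was taken for each column, the median over genes of its value over the geometric mean of all 4: 0.594 for null nuclei, 0.279 for WT nuclei, 1.85 for null cytoplasms and 3.47 for WT cytoplasms. A relative log2 difference is the log2 difference of 2 values so divided, after adding 1, and genes were counted as higher or lower from 2-fold on. It compares a gene with the typical gene of the column, so a change shared by all RNA is not seen. Skiv2l2 itself was listed at 3.54 in null nuclei and 13.3 in WT nuclei, and at 4.36 in null cytoplasms and 187 in WT cytoplasms. All 10 oocyte markers examined, among them Zp3 and Gdf9, reached 1 in every column. Of 14 granulosa cell markers, 4 reached 1 in null nuclei and 4 in WT nuclei, 14 in null cytoplasms and 12 in WT cytoplasms. Their summed share of the column total was 0.00609% in null nuclei, 0.00739% in WT nuclei, 0.0119% in null cytoplasms and 0.0129% in WT cytoplasms. In such pools fewer cells of a type and less RNA per cell cannot be told apart, and the part of other cells in the results below was not tested. Of 4 nuclear RNAs examined, Neat1 was at 0 in every column. Malat1 was at 364 in null nuclei, 22.7 in WT nuclei, 136 in null cytoplasms and 9.83 in WT cytoplasms. In the same order Xist was at 9.37, 0.528, 16.1 and 0.246, and Kcnq1ot1 at 13.6, 2.08, 3.55 and 1.10. Cytoplasms of null oocytes thus held more of these 3 RNAs than those of WT. How cleanly nuclei and cytoplasms were parted was not tested.

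Within each column the Sm and other Snrp genes stood highest. Their median lay above 94.0% of kept genes in null nuclei, 94.8% in WT nuclei, 96.3% in null cytoplasms and 93.0% in WT cytoplasms, positions that no rescaling of a column can move. The PRPF genes lay lower, at 68.6%, 73.5%, 66.8% and 69.7% of kept genes in the same order of columns. The hnRNP genes lay at 71.0% in null nuclei, 76.1% in WT nuclei, 73.3% in null cytoplasms and 64.7% in WT cytoplasms. All 68 together took 0.852% of the column total in null nuclei, 0.753% in WT nuclei, 1.05% in null cytoplasms and 0.721% in WT cytoplasms. The surplus in null nuclei rested on Luc7l2 alone, since the share of the other 67 was lower there, at 0.556%, than in WT nuclei, at 0.694%. Without Luc7l2 the share in cytoplasms was 0.927% in null and 0.720% in WT.

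**Figure D1:**
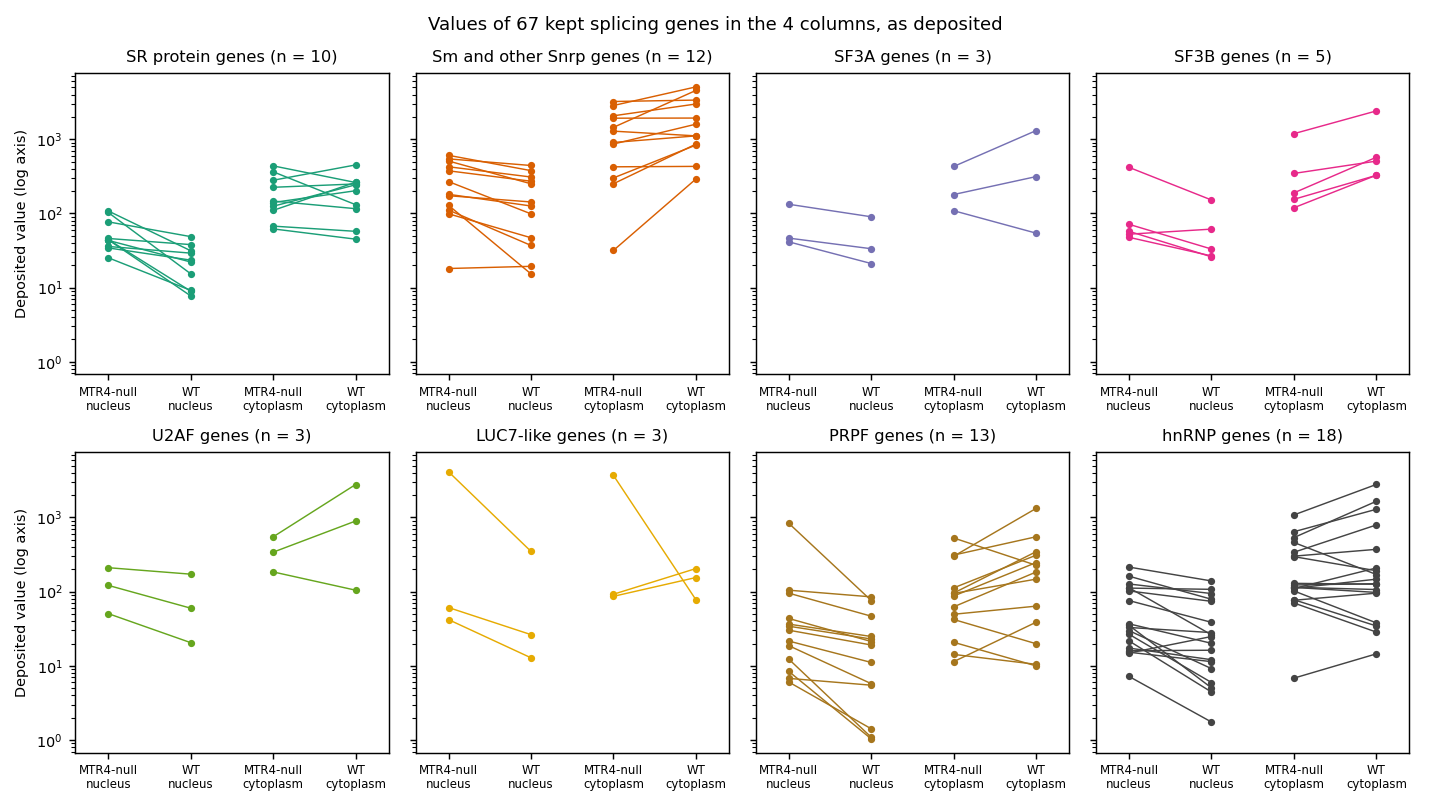
Deposited values (log axis) of the 67 kept genes in MTR4-null and WT nuclei and cytoplasms, 1 panel per class, with a line joining null and WT of 1 gene in 1 compartment. Sm and other Snrp genes fill the top of the range, and in the LUC7-like panel Luc7l2 stands at 4138 in null nuclei and 3696 in null cytoplasms, far above Luc7l and Luc7l3.

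Among the SR protein genes, Srsf3 and Srsf10 had the highest values of WT cytoplasms. SR proteins carry arginine-serine repeats and mostly bind exons, where they favour inclusion. The gene with the widest range of relative values was Srsf9, listed at 103 in null nuclei, 15.3 in WT nuclei, 364 in null cytoplasms and 131 in WT cytoplasms. Its relative log2 difference of null against WT was 1.63 in nuclei and 2.35 in cytoplasms. Srsf11 was at 44.1 in null nuclei, 7.72 in WT nuclei, 147 in null cytoplasms and 116 in WT cytoplasms, and Srsf6 at 44.3, 8.95, 67.3 and 57.3 in the same order of columns. Both were thus higher in null oocytes in each compartment on the relative scale. Their differences in nuclei and cytoplasms were 1.39 and 1.22 for Srsf11 and 1.19 and 1.09 for Srsf6. As deposited, the log2 differences were 2.37 and 0.34 for Srsf11 and 2.19 and 0.23 for Srsf6, so their counts as higher in cytoplasms rest on the scaling. The ratio of Srsf6 to its close relative Srsf4 was 1.29 in null nuclei and 0.382 in WT nuclei, and 0.539 in null cytoplasms and 0.236 in WT cytoplasms. In all, 3 of the 10 kept SR protein genes were higher and 0 lower in null nuclei, and 5 were higher and 0 lower in null cytoplasms. Among all kept genes 25.8% were higher and 16.2% lower in null nuclei, and 24.2% higher and 18.6% lower in null cytoplasms. On this relative scale the count of higher SR protein genes was near the background in nuclei and above it in cytoplasms. As deposited, 1 of the 10 was higher in null cytoplasms (10.0%), beside 14.9% of all kept genes, so the surplus there rests on the scaling. In cytoplasms Srsf1 and Srsf2 joined Srsf6, Srsf9 and Srsf11 on the relative scale, at differences of 1.30 and 1.64, while in nuclei Srsf1 and Srsf2 had 0.36 and -0.43. Srsf3 and Srsf10 stayed within 2-fold in both, at -0.81 and -0.79 in nuclei and 0.22 and -0.35 in cytoplasms.

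The Sm proteins form a ring of 7 on most small nuclear RNAs of the spliceosome, so their genes are natural partners for comparison within a column. Of the 7 ring genes, Snrpb had the lowest value in every column, at 129 in null nuclei, 15.3 in WT nuclei, 424 in null cytoplasms and 429.7 in WT cytoplasms. The highest ring gene exceeded it 4.71-fold in null nuclei and 28.9-fold in WT nuclei, and 7.59-fold in null cytoplasms and 11.8-fold in WT cytoplasms. Snrpg and Snrpe were the highest, Snrpg in null nuclei and WT cytoplasms and Snrpe in WT nuclei and null cytoplasms. Snrpb was the only ring gene higher by 2-fold or more in null nuclei, at a relative log2 difference of 1.96. The other 6, Snrpd1, Snrpd2, Snrpd3, Snrpe, Snrpf and Snrpg, lay between -0.80 and -0.074. These comparisons depend on how reads were assigned, since the ring genes differ in sequence shared with other genes. Of the 50-base stretches of the longest coding transcript, other genes also held 21.3% for Snrpf, 20.8% for Snrpe, 18.1% for Snrpg, 13.8% for Snrpd1 and 11.7% for Snrpd2. For Snrpd3 the share was 0 and for Snrpb 0.0899%.

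Snrpn encodes SmN, a close counterpart of the SmB proteins of Snrpb that is best known from brain and comes from an imprinted locus. It was listed at 18.1 in null nuclei and 19.3 in WT nuclei, and at 31.6 in null cytoplasms and 290.1 in WT cytoplasms. Its relative log2 difference was -1.16 in nuclei and -2.23 in cytoplasms, and it was the only one of the 67 that was lower in both. As deposited, the log2 differences of Snrpn were -0.092 and -3.16, so its count as lower in nuclei rests on the scaling. The ratio of Snrpn to Snrpb, which needs no common scale, was 0.141 in null nuclei and 1.26 in WT nuclei, and 0.0746 in null cytoplasms and 0.675 in WT cytoplasms. Null oocytes thus had far less Snrpn per Snrpb in both compartments. The ratio depends on how reads of Snrpn were assigned, since 21.2% of the 50-base stretches of its longest coding transcript also occur in other genes and its exons overlap those of Snurf on the same strand over 216 bases. Of the 50-base stretches of the longest coding transcript of Snrpb, 0.0899% occur in other genes.

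The other snRNP proteins named Snrp differed less. Snrpa, a protein of the U1 snRNP, was at 111 in null nuclei, 37.0 in WT nuclei, 300.4 in null cytoplasms and 832 in WT cytoplasms. Its U2 counterpart Snrpb2 was at 173 in null nuclei, 142.5 in WT nuclei, 903 in null cytoplasms and 1107 in WT cytoplasms. The ratio of Snrpb2 to Snrpa was lower in null nuclei (1.56) than in WT nuclei (3.85), and higher in null cytoplasms (3.01) than in WT cytoplasms (1.33), so the order of null and WT turned between compartments. Of the 12 genes of the class, 1 was higher and 1 lower in null nuclei and the same numbers held in null cytoplasms, where Snrpf was the higher one at a relative difference of 1.12. Each of these shares, 8.33%, lay below the 25.8% higher and 16.2% lower of all kept genes in nuclei and the 24.2% and 18.6% in cytoplasms.

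SF3A and SF3B are parts of the U2 snRNP that settle it on the branch point. The 3 SF3A proteins act as 1 unit, yet Sf3a2 was at 41.3 in null nuclei, 21.1 in WT nuclei, 109 in null cytoplasms and 54.1 in WT cytoplasms, while Sf3a3 was at 133, 90.0, 429 and 1306 in the same order. The highest of the 3 exceeded the lowest 3.21-fold in null nuclei, 4.26-fold in WT nuclei and 3.95-fold in null cytoplasms, but 24.1-fold in WT cytoplasms. For the 5 SF3B genes the same measure was 8.77-fold and 5.83-fold in null and WT nuclei and 9.96-fold and 7.39-fold in null and WT cytoplasms, with Sf3b5 the highest in each, so they spread less than the SF3A genes in WT cytoplasms and more in the other 3 columns. Sf3b1, the subunit that embraces the branch point, was at 52.4 in null nuclei and 61.3 in WT nuclei, and at 189 in null cytoplasms and 571 in WT cytoplasms. Its relative difference was -1.31 in nuclei and -0.68 in cytoplasms, and it was the only one of the 5 to reach 2-fold. 

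U2AF binds the 3′ splice site with a large subunit, U2af2, on the pyrimidine tract and a small one, U2af1, on the AG. U2af2 was at 50.6 in null nuclei, 20.6 in WT nuclei, 185 in null cytoplasms and 105 in WT cytoplasms, with relative differences of null against WT of 0.20 in nuclei and 1.69 in cytoplasms. The paralogue U2af1l4 was at 211 in null nuclei, 172 in WT nuclei, 548 in null cytoplasms and 2780.0 in WT cytoplasms, with relative differences of -0.80 and -1.43. Its ratio to U2af1 was 1.73 in null nuclei and 2.87 in WT nuclei, and 1.61 in null cytoplasms and 3.10 in WT cytoplasms. These values are uncertain, since 97.2% of the 50-base stretches of the longest coding U2af1l4 transcript occur in other genes, mostly Gm49396, and 59.4% of those of U2af1.

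The LUC7-like proteins accompany the U1 snRNP, and their yeast relative Luc7 helps it to choose 5′ splice sites. Luc7l2 was listed at 4138 in null nuclei and 349 in WT nuclei, and at 3696 in null cytoplasms and 78.0 in WT cytoplasms. It stood above 99.6% of kept genes in null nuclei, 98.1% in WT nuclei and 99.3% in null cytoplasms, but above only 55.2% in WT cytoplasms. Luc7l was at 42.0 in null nuclei, 12.9 in WT nuclei, 92.3 in null cytoplasms and 205 in WT cytoplasms, and Luc7l3 at 61.1, 26.4, 86.5 and 155 in the same order. The ratio of Luc7l2 to Luc7l was 98.5 in null nuclei, 27.2 in WT nuclei, 40.0 in null cytoplasms and 0.381 in WT cytoplasms. WT cytoplasms were the only column in which Luc7l2 lay below both relatives. The relative log2 difference of null against WT for Luc7l2 was 2.47 in nuclei and 6.41 in cytoplasms, the largest of the 67 in both. Its exons overlap those of Gm26699, a long noncoding RNA gene on the opposite strand, over 2284 bases, and Smart-seq2 libraries do not mark strand, so reads of the pair cannot be told apart.

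PRPF proteins, named after yeast pre-mRNA processing genes, serve in the U4/U6.U5 particle and in the catalytic steps. Prpf18, known from yeast as a factor of the second step, was at 836 in null nuclei, 76.0 in WT nuclei, 529 in null cytoplasms and 227 in WT cytoplasms. Its ratio to Prpf8, the core of the catalytic centre, was 24.4 in null nuclei and 3.30 in WT nuclei, and 4.70 in null cytoplasms and 0.731 in WT cytoplasms. Prpf40b was at 12.3 in null nuclei, 1.09 in WT nuclei, 20.8 in null cytoplasms and 9.99 in WT cytoplasms. Its relative difference of null against WT was 2.14 in nuclei and 1.66 in cytoplasms. Prpf4, a U4/U6 protein, was at 8.42 in null nuclei and 1.04 in WT nuclei, and at 42.2 in null cytoplasms and 19.9 in WT cytoplasms. These 3 genes were the PRPF genes higher in null nuclei. In null cytoplasms 4 of the 13 were higher, Prpf19 being the additional one at 1.11, and Prpf38a was lower at -1.23. The shares of higher genes, 23.1% in nuclei and 30.8% in cytoplasms, were near the 25.8% and 24.2% of all kept genes. Prpf6, of the U5 particle, had relative differences of -0.063 in nuclei and 0.086 in cytoplasms, and Prpf8 of -0.51 and -0.55.

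**Figure D2:**
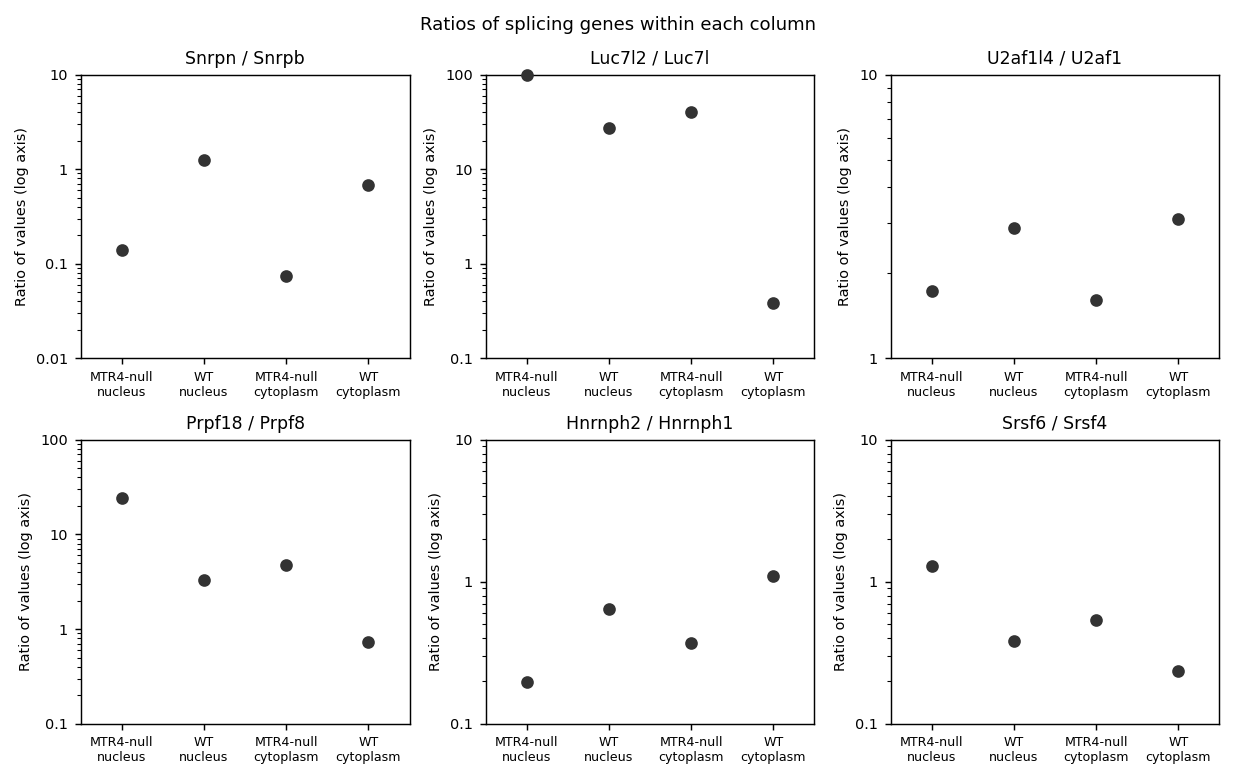
Ratios of the deposited values of 2 splicing genes within 1 column (log axis) for MTR4-null and WT nuclei and cytoplasms, which no rescaling of a column can change. Snrpn/Snrpb, U2af1l4/U2af1 and Hnrnph2/Hnrnph1 are lower in null than in WT in both compartments, and Luc7l2/Luc7l, Prpf18/Prpf8 and Srsf6/Srsf4 are higher.

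The hnRNPs coat nascent transcripts, and many of them hold exons out. Hnrnpk and Hnrnpc had the highest values of WT cytoplasms in the class, Hnrnpc at 112 in null nuclei, 108 in WT nuclei, 536 in null cytoplasms and 1654 in WT cytoplasms. Hnrnpd, which binds AU-rich elements, was at 17.4 in null nuclei, 12.1 in WT nuclei, 102 in null cytoplasms and 38.0 in WT cytoplasms. Its relative difference of null against WT was -0.56 in nuclei and 2.24 in cytoplasms, so it was higher in null cytoplasms alone. Hnrnpab was at 113 in null nuclei, 26.2 in WT nuclei, 460.2 in null cytoplasms and 170.4 in WT cytoplasms, with relative differences of 1.01 and 2.32. Hnrnpl, a binder of CA repeats, was at 26.7 in null nuclei, 5.97 in WT nuclei, 70.4 in null cytoplasms and 28.5 in WT cytoplasms, with 1.03 and 2.08. Hnrnpab and Hnrnpl lay just past 2-fold in nuclei, whereas Prpf19 and Hnrnpul1 lay just short of it at 0.88 and 0.85. Hnrnpa0 was also higher in both, at 1.15 and 1.98.

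Of the hnRNP genes 3 were lower in null nuclei. Hnrnph2 was at 14.9 in null nuclei, 24.9 in WT nuclei, 110.4 in null cytoplasms and 209 in WT cytoplasms, with relative differences of -1.79 in nuclei and -0.012 in cytoplasms. Its ratio to Hnrnph1, a paralogue that like it binds runs of G, was 0.196 in null nuclei and 0.644 in WT nuclei, and 0.372 in null cytoplasms and 1.09 in WT cytoplasms. Hnrnpa1 had relative differences of -1.09 and 0.93, and Hnrnpc of -1.03 and -0.72. On the deposited scale Hnrnpc was 0.055 higher in null nuclei, so its direction there rests on the scaling. Hnrnpa1 was at -0.022 in nuclei on that scale, so its count as lower rests on the scaling too. Hnrnpm, by contrast, was at 35.1 in null nuclei and 5.05 in WT nuclei (1.65), and at 76.6 in null cytoplasms and 95.5 in WT cytoplasms (0.57). Its exons overlap those of March2 on the same strand over 1169 bases. Of the 18 hnRNP genes, 4 were higher and 3 lower in null nuclei, and 6 higher and 0 lower in null cytoplasms. In nuclei these are 22.2% and 16.7%, near the 25.8% and 16.2% of all kept genes, and in cytoplasms 33.3% higher, beside 24.2% of all kept genes, and none lower, beside 18.6%.

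Over all 67 genes, 12 (17.9%) were higher and 5 (7.46%) lower in null than in WT nuclei on the relative scale, with a median of -0.12. Among all kept genes 25.8% were higher and 16.2% lower, with a median of 0.055, so both shares lay below the background. In cytoplasms 19 of the 67 (28.4%) were higher in null than in WT and 3 (4.48%) lower, with a median of 0.35, beside 24.2% higher and 18.6% lower and a median of 0.055 among all kept genes. The share of higher genes was close to its background and that of lower genes was under it. As deposited, the counts in nuclei were 31 higher and 0 lower, beside 46.3% and 3.69% of kept genes, and in cytoplasms 8 higher and 23 lower, beside 14.9% and 43.7%. The median of all kept genes was 0.91 in nuclei and -0.79 in cytoplasms on that scale. Apart from Hnrnpc in nuclei, each gene counted on the relative scale in either comparison kept its sign as deposited. Some lay near 0 on that scale, such as Hnrnpa1 at -0.022, Snrpn at -0.092 and Sf3b1 at -0.22 in nuclei. Their counts as lower in null nuclei therefore also rest on the scaling. The 8 genes higher in null cytoplasms as deposited were all among the 19. The rest of the 19 fell short of 2-fold on that scale, for example Snrpf at 0.21, Hnrnpr at 0.22 and Srsf1 at 0.45, so their counts rest on the scaling too.

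Both comparisons of null with WT rest on separate columns. The 10 genes higher in both on the relative scale were Luc7l2, Prpf18, Prpf40b, Prpf4, Srsf9, Srsf11, Srsf6, Hnrnpa0, Hnrnpab and Hnrnpl. Of these, Srsf6 (0.23), Srsf11 (0.34) and Prpf40b (0.99) fell short of 2-fold in cytoplasms as deposited. Snrpn was lower in both, 0 were counted in opposite directions and 39 were within 2-fold in both. Among the 14240 kept genes, 2332 were higher in both, 1199 lower in both, 137 counted in opposite directions and 5838 within 2-fold in both. The share higher in both was thus near that of all kept genes, and opposite directions were rare among all kept genes too. Spearman's rho between the nuclear and the cytoplasmic difference was 0.46 over the 67 genes and 0.67 over all kept genes, a description across genes that share libraries.

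**Figure D3:**
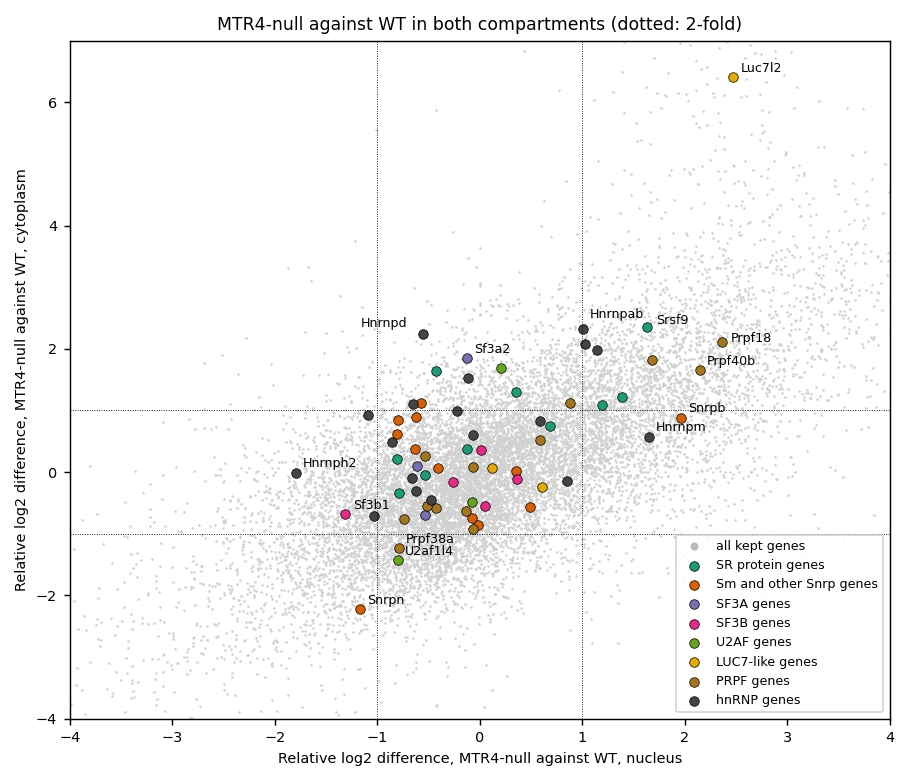
Relative log2 difference of MTR4-null against WT in nuclei (horizontal axis) and in cytoplasms (vertical axis) for the 67 genes, coloured by class, over all kept genes in grey, with dotted lines at 2-fold and 304 kept genes outside the axes. Luc7l2 stands apart at 2.47 and 6.41, Snrpn lies lowest in cytoplasms at -2.23, and Hnrnpd at -0.56 and 2.24 and Hnrnpm at 1.65 and 0.57 were past 2-fold in 1 compartment each.

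A split by level used a column that the nuclear comparison does not contain, though the split is not independent of that comparison. Spearman's rho between WT cytoplasms and WT nuclei was 0.87 over the 68 genes and 0.91 over all kept genes. Genes low in WT cytoplasms thus tend to be low in WT nuclei, which enter the difference, so the split only describes the values. The median of the 67 genes in WT cytoplasms was 249. Of the 33 genes below it, 11 were higher and 2 lower in null nuclei, with a median relative difference of 0.36. Of the 34 at or above it, 1 was higher and 3 lower, with a median of -0.49. Kept genes outside the group had like medians and shares of higher genes: 10613 below that value had a median of 0.37, with 33.0% higher, beside 33.3% of the 33, and 3560 at or above it had a median of -0.48, with 4.47% higher, beside 2.94% of the 34. Their shares of lower genes were larger, 13.8% below that value, beside 6.06% of the 33, and 23.5% at or above it, beside 8.82% of the 34. The gene higher in null nuclei despite a high level in WT cytoplasms was Snrpb.

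Promoter windows are shown for 3 genes higher in null oocytes in both compartments, Srsf9, Hnrnpab and Prpf4, and for Sf3b1, lower in null nuclei, because genes that move together can be compared by the letters at their start. RefSeq windows on GRCm38.p6, which is not the mm9 build that the submitters' notes name, run from 250 bases before to 50 bases after the start and matched 59 of the 68 genes. Srsf9 lies at chr5:115326927-115327226 on the plus strand, Hnrnpab at chr11:51606832-51607131 on the minus strand, Prpf4 at chr4:62408533-62408832 on the plus strand and Sf3b1 at chr1:55027429-55027728 on the minus strand. Capitals mark matches, on either strand, to CCAAT, to the GC box GGGCGG, to TATAAA, to the ETS motif CCGGAAG, to the YY1 motif GATGGCG, to the NRF1 motif GCATGCG or to the palindrome TCGCGA.
Srsf9: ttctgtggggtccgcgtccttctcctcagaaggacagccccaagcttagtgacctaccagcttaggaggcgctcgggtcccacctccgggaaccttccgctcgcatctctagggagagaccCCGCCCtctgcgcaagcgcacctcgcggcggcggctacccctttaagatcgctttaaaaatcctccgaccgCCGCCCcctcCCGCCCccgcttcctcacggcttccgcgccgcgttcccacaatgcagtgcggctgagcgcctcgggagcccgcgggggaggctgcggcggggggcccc
Hnrnpab: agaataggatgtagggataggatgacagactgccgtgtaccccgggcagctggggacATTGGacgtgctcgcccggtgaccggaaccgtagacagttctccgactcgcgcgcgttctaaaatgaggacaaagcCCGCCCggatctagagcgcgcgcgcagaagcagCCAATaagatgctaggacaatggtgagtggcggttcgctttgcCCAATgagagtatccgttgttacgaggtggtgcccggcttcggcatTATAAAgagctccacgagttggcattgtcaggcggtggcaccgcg
Prpf4: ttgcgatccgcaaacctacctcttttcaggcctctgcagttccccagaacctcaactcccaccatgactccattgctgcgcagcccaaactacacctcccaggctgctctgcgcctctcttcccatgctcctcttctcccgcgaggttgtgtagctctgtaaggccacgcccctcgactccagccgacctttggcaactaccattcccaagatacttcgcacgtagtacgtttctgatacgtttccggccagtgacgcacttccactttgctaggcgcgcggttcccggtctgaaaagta
Sf3b1: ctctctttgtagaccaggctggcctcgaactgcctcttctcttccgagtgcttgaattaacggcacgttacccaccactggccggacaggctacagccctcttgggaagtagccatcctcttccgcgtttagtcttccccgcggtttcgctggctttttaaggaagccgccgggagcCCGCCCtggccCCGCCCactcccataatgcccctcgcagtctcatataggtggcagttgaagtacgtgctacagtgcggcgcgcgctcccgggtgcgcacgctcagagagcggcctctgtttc

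The Srsf9 window held the GC box at 3 places, at bases 122, 193 and 203 counted from its 5′ end. The Hnrnpab window held CCAAT at bases 58, 167 and 210, the GC box at base 134 and TATAAA at base 256, just past the start. The Prpf4 window held none of the 7 motifs, and Sf3b1 held the GC box at bases 178 and 189. The 4 windows thus differ from each other in their letters. Some genes have several starts, and the 59 genes have 80 windows. Counting genes with a match in any window, CCAAT occurred in 31 of the 59 (52.5%), beside 41.1% of all 27025 genes with a window and 43.2% of kept genes. Among hnRNP genes it occurred in 13 of 17. The ETS motif occurred in 19 of the 59 genes (32.2%), beside 9.93% of all genes and 18.3% of kept genes, and the GC box in 39 (66.1%), beside 38.2% and 64.3%. Counting single windows, CCAAT occurred in 48.8%, the ETS motif in 30.0% and the GC box in 62.5% of the 80, beside 37.4%, 8.86% and 35.7% of all 32851 RefSeq windows. A match describes the letters of the window and says nothing of binding.

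The position of the RNA within the cell was compared by setting nuclei against cytoplasms of 1 genotype. In WT oocytes 14 of the 67 genes (20.9%) were relatively higher in nuclei and 1 (1.49%), Snrpb, was lower, with a median of 0.37, beside 9.73% higher and 7.46% lower and a median of -0.10 among all kept genes. In null oocytes 5 (7.46%) were higher in nuclei and 4 (5.97%) lower, with a median of -0.057, beside 12.4% and 8.83% and a median of -0.0086. On the deposited scale nearly all kept genes are lower in nuclei, and the counts were 1 higher and 66 lower in WT (1.74% and 91.2% of kept genes) and 0 higher and 58 lower in null (2.91% and 71.9%). Of the 14, Luc7l2 alone was also higher in WT nuclei as deposited, and the sign of the other 13 turns with the scale. The median of the 67 genes in WT lay above that of all kept genes by 0.47 on the relative scale and by 0.069 as deposited. In null oocytes the sign turned for Luc7l3 and Srsf6, and stayed for Luc7l2 (0.16), Prpf18 (0.66) and Hnrnpul1 (0.066), none of which reached 2-fold as deposited.

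By class, the hnRNP genes in WT nuclei had a median of 0.59 with 6 of 18 higher, the SR protein genes 0.50 with 2 of 10, and the Sm and other Snrp genes -0.19 with 0 of 12. Hnrnpd (1.90), Hnrnpu (1.39), Hnrnph1 (1.31), Hnrnpl (1.28), Hnrnpul2 (1.23) and Hnrnpa3 (1.20) were the hnRNP genes past 2-fold, and Srsf1 (1.28) and Srsf2 (1.20) the SR protein genes. Hnrnpu, a scaffold protein of the nucleus, was listed at 162 in null nuclei, 79.0 in WT nuclei, 301 in null cytoplasms and 372 in WT cytoplasms. The remaining 6 were Luc7l2 (5.74), Sf3a2 (2.21), Prpf18 (2.04), U2af2 (1.26), Luc7l3 (1.07) and Prpf38b (1.05). In null oocytes Prpf18 (2.29), Luc7l2 (1.80), Hnrnpul1 (1.48), Luc7l3 (1.12) and Srsf6 (1.01) were higher in nuclei. Hnrnpa1 (-1.35), Hnrnpr (-1.23), Hnrnph2 (-1.22) and Snrpf (-1.19) were lower. Prpf18, Luc7l2 and Luc7l3 were therefore past 2-fold in both genotypes.

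**Figure D4:**
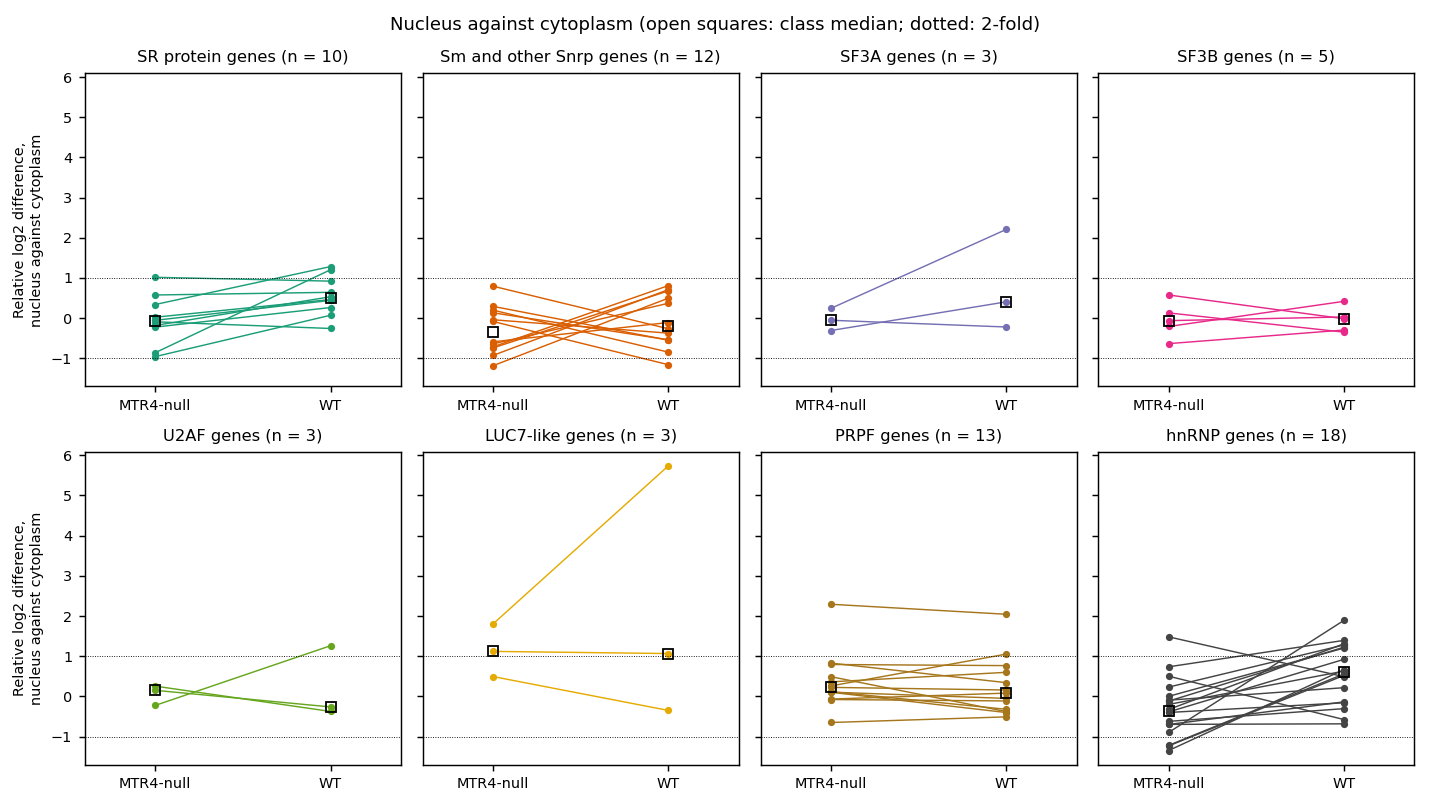
Relative log2 difference of nucleus against cytoplasm in MTR4-null and in WT oocytes, 1 panel per class, with a line per gene, open squares at the class median and dotted lines at 2-fold. The hnRNP median is -0.36 in null and 0.59 in WT, whereas the PRPF median is 0.22 in null and 0.081 in WT.

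The nuclear difference in null oocytes minus that in WT was negative in the median of the 67 genes, at -0.31, against 0.073 over all kept genes. This measure uses the same 4 columns as the comparisons above, so it is no separate result. A low value in WT cytoplasms alone makes a gene higher in null cytoplasms, higher in WT nuclei and downward here. Sf3a2, for example, had divided values of 69.5 in null nuclei, 75.7 in WT nuclei, 58.7 in null cytoplasms and 15.6 in WT cytoplasms. The measure was past 2-fold upward in 4 genes (5.97%) and downward in 19 (28.4%), beside 16.9% and 15.3% of kept genes. The 19 comprised 9 of 18 hnRNP genes, 5 of 12 Sm and other Snrp genes, 2 of 10 SR protein genes and Luc7l2, Sf3a2 and U2af2, with 0 of 13 PRPF genes and 0 of 5 SF3B genes. Luc7l2 was lowest at -3.94, followed by Hnrnpd at -2.79, Srsf2 at -2.07, Hnrnpa1 at -2.02 and Sf3a2 at -1.97. The 4 upward were Hnrnpm at 1.08, Snrpb at 1.08, Snrpn at 1.06 and Snrpa at 1.05. Just short of 2-fold lay Hnrnpul1 at 0.99 and Srsf1 at -0.95. As deposited, the median was 1.63 with 46 upward and 1 downward (71.7% and 3.32% of kept genes), and the median of all kept genes was 1.70. The median of the 67 genes minus that of all kept genes was -0.38 on the relative scale and -0.067 as deposited.

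The Sm ring genes split in this measure. Snrpe (-1.64), Snrpf (-1.68), Snrpd3 (-1.53) and Snrpd1 (-1.01) were past 2-fold downward, Snrpg was at -0.48, Snrpd2 at 0.67 and Snrpb at 1.08. Snrpe was listed at 542 in null nuclei, 442 in WT nuclei, 3218 in null cytoplasms and 3364 in WT cytoplasms. Snrpd2 was at 508 in null nuclei, 251 in WT nuclei, 1443 in null cytoplasms and 4536 in WT cytoplasms. Partners of 1 ring thus differed more in this measure than the 5 SF3B genes, which ranged between -0.63 and 0.59. The part of sequence shared with other genes in this split was not tested.

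Of 120 further kept splicing genes from 4 lists, 14 were higher and 12 lower in null nuclei, and 25 higher and 23 lower in null cytoplasms, with medians of -0.19 and 0.084. These are 11.7% and 10.0% in nuclei, below the 25.8% and 16.2% of all kept genes, and 20.8% and 19.2% in cytoplasms, near the 24.2% and 18.6% of all kept genes. The 38 hnRNP-like and other RNA-binding regulators among them had 15 higher and 1 lower in null cytoplasms, a median of 0.79, and 17 downward against 1 upward in the nuclear difference, a median of -0.95. That is 39.5% higher in cytoplasms, beside 24.2% of all kept genes, and 44.7% downward in the nuclear difference, beside 15.3%. Both counts use the cytoplasm columns, so they are not separate results. On the deposited scale 15.8% of the 38 were higher in null cytoplasms, beside 14.9% of all kept genes, so the surplus there rests on the scaling. The 18 hnRNP genes themselves had a median of 0.71 in null cytoplasms and of -0.94 in the nuclear difference. The 24 genes of the Prp19 and exon junction complexes had 2 higher and 9 lower (37.5%) in null cytoplasms, a median of -0.65, and the 37 other snRNP genes 4 higher and 9 lower (24.3%), a median of -0.47, beside 18.6% of all kept genes lower. As deposited, the 120 genes had medians of 0.81 in nuclei, -0.81 in cytoplasms and 1.68 in the nuclear difference.

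Syncrip, an hnRNP also called hnRNP Q, was at 31.2 in null nuclei, 0.820 in WT nuclei, 116 in null cytoplasms and 17.5 in WT cytoplasms, with the highest relative difference in nuclei among these 120 genes at 3.76. Bcas2, a Prp19 complex subunit, was at 2916 in null nuclei, 449 in WT nuclei, 3258 in null cytoplasms and 233 in WT cytoplasms, with the highest in cytoplasms at 4.69. Like Luc7l2 it was relatively high in WT nuclei against WT cytoplasms, at 4.56. Qk, a binder of ACUAA elements, had a nuclear difference of -2.48. At the other end stood Magohb, of the exon junction complex, with -2.50 in nuclei, and Ctnnbl1, of the Prp19 complex, with -2.15 in cytoplasms.

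Sequence shared between genes bears on these values, because it is not stated how reads that match more than 1 gene were assigned. On the GENCODE M21 transcripts, 23 of the 68 genes had 10% or more of the 50-base stretches of their longest coding transcript in common with another gene, many of them Gm-named copies, and 25 had none. The leading ones after U2af1l4 and U2af1 were Sf3b4 (49.3%), Hnrnpf (49.0%), Hnrnpa1 (46.4%), Hnrnpk (34.5%), Srsf3 (31.5%) and U2af2 (29.9%). Luc7l2 had 10.1%, Prpf18 0.317% and Srsf9 had 0. Exons of 23 genes overlapped those of another gene by at least 100 bases, in 16 cases a protein-coding gene. Among the genes above these were Sf3a2 with Plekhj1 over 429 bases, Hnrnpab with Phykpl over 809 and Srsf2 with Mettl23 over 460, each on the opposite strand. Without the 23 genes of shared sequence, 1 of 44 was lower in null nuclei and 10 were downward in the nuclear difference.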

How the data were processed

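Poly(A) RNA of oocyte nuclei and cytoplasms was sequenced by the authors after Smart-seq2 preparation, per the labels' protocols. TopHat2 2.1.1 and Cufflinks 2.2.1 appear, with mm9, in the submitters' processing notes, without role or settings. The deposited table is called FPKM by the authors, but was treated as a score, since its 4 columns are not on 1 scale. No source says how libraries were combined. Limma had been planned for library columns; with 1 column per group only differences are given, so precision is unknown. Python 3.11.15, numpy 2.4.6 and pandas 2.3.3 were used.

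Genes reaching 1 in 2 or more columns were kept, columns were divided by median ratios over the 13328 kept genes above 0 in all 4 columns, and 1 was added before log2. That constant understates the change of low genes. The calculation was tested on simulated data. The members and lists were chosen with earlier results of these data known. Named were up to 10 members past 2-fold in each direction per comparison, the 2 highest in WT cytoplasms and the widest-ranging per class, up to 3 further splicing genes in each direction, and members not kept; some genes that this rule names are not reported here. The pairs of related genes, the Luc7l2 shares, the promoters shown and some members near 2-fold were picked after their values were seen. Transcripts came from GENCODE M21 on GRCm38.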

Additional observations from a re-analysis of the deposited data

How the results depend on the processing

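No paired analysis was possible because the table has no column for a single library, and for the same reason no library could be left out. With 1 column per group the spread between libraries and the read depth are unknown, so the limits of detection cannot be given. Of 10 alternative settings, 7 were planned and 3, which leave out members, were chosen after seeing the data. Adding 0.1 in place of 1, or no filter on low values, moved none of the 15 counts and medians (a count by over 1.5 times, a median by over 0.1), nor any of 86 values of single genes. None of these 86 values changed sign except on the deposited scale, where 30 did, some genes being counted in more than 1 comparison. The cause of the shifts below was not tested unless the setting itself removes members.

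As deposited, null against WT had 31 higher and 0 lower in nuclei (median 0.94) and 8 higher and 23 lower in cytoplasms (median -0.55). Nucleus against cytoplasm had 1 higher and 66 lower in WT (median -3.20) and 0 higher and 58 lower in null (median -1.68). The nuclear difference had 46 upward and 1 downward (median 1.63).

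Single genes that changed sign as deposited were Hnrnpc in null against WT nuclei (0.055) and, for nucleus against cytoplasm in WT, Hnrnpa3 (-2.35), Hnrnpd (-1.57), Hnrnph1 (-2.28), Hnrnpl (-2.08), Hnrnpu (-2.22), Hnrnpul2 (-2.35), Luc7l3 (-2.51), Prpf18 (-1.56), Prpf38b (-2.52), Sf3a2 (-1.32), Srsf1 (-2.17), Srsf2 (-2.40) and U2af2 (-2.29). In null these were Luc7l3 (-0.49) and Srsf6 (-0.59). For the nuclear difference they were Hnrnpa3 (0.74), Hnrnpab (0.64), Hnrnph1 (0.33), Hnrnph2 (0.21), Hnrnpl (0.71), Hnrnpr (0.17), Hnrnpul2 (0.62), Snrpb2 (0.57), Snrpd1 (0.98), Snrpd3 (0.47), Snrpe (0.36), Snrpf (0.31), Srsf3 (0.95) and U2af2 (0.45).

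With columns divided by their totals, the median of null against WT was -0.26 in nuclei and 0.59 in cytoplasms. Nucleus against cytoplasm in WT had 2 lower (median 0.24), and in null 3 higher and 17 lower (median -0.58). The nuclear difference had 0 upward (median -0.69). The 14240 kept genes moved too with this scaling: null against WT had medians of -0.061 in nuclei and 0.27 in cytoplasms, nucleus against cytoplasm in WT had 1283 higher and 1652 lower (median -0.25), nucleus against cytoplasm in null had 1163 higher and 3591 lower (median -0.50), and the nuclear difference 1543 upward and 3500 downward (median -0.28). With quantile normalization the median of null against WT in nuclei was -0.012, nucleus against cytoplasm in null had 7 lower and the nuclear difference 2 upward. Adding 5 gave 3 higher for nucleus against cytoplasm in null and 2 upward in the nuclear difference.

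Without the Sm and other Snrp genes, nucleus against cytoplasm in WT had 0 lower and the nuclear difference 1 upward. Without members sharing 10% or more of their 50-base stretches, null against WT had 1 lower in nuclei and 1 lower in cytoplasms (median 0.51), nucleus against cytoplasm in null had 1 lower, and the nuclear difference had 1 upward and 10 downward (median -0.19). Without members overlapping another gene, null against WT cytoplasms had 12 higher and 1 lower, nucleus against cytoplasm had 8 higher in WT and 2 lower in null, and the nuclear difference had 1 upward and 10 downward. This setting and the one before each left out 23 genes, so their counts are out of fewer than 67. A lower count there need not be a lower share. With all 67 genes, null against WT cytoplasms had 19 higher and 3 lower, and nucleus against cytoplasm in WT had 14 higher. Without Luc7l2 and Prpf18, nucleus against cytoplasm in null had 3 higher.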
